A study of Mus musculus with 27 samples.

Results

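Trans contacts, that is Hi-C contacts between different chromosomes, were examined among the centromere-proximal ends of the 19 mouse autosomes in C2C12 cells, a mouse muscle cell line labelled wild type. An end is the stretch from the first sequenced base of an autosome, at 3 Mb in the genome build mm9, to 8 Mb, so it spans 5 Mb and 125 bins of 40 kb. Of the 2375 bins in these stretches, 2352 had at least 1 contact and were the members, among 59889 autosomal bins with a contact. The ends of chromosomes 12, 15, 16, 18 and 19, which the choice of regions names as the nucleolus organizer chromosomes, held 620 of the member bins, and the ends of the other 14 autosomes held 1732. The study compared wild-type and *Firre* knockout mouse embryonic fibroblasts (MEFs) and used C2C12 cells as a further Hi-C sample. Its 2 C2C12 libraries, replicates with no difference in treatment, were crosslinked with formaldehyde, cut with HindIII, ligated in situ and pooled by the authors into 1 matrix. No value for C2C12 therefore has a replicate error, and no test between groups was possible. The cell type could not be checked against marker genes, since no expression was measured in C2C12 cells. The 6 wild-type MEF libraries (3 male and 3 female) were used only to show which genes of the ends are transcribed in another mouse cell type.

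Mouse autosomes carry the centromere at one end, next to a short telomere. The centromere is flanked by megabases of major satellite, a tandem repeat that is not assembled, so the first sequenced bases of an autosome border on pericentromeric heterochromatin. In interphase nuclei, the pericentromeric blocks of several chromosomes gather into chromocenters. The ribosomal RNA genes lie as tandem arrays close to the centromeres of the nucleolus organizer chromosomes, and active arrays gather at nucleoli. Which chromosomes carry active arrays differs between mouse strains, and the reference genome (C57BL/6J) is not the strain from which C2C12 cells were derived.

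The first sequenced bases of 4 ends are shown, the 3 ends with the highest median contact to the other ends (chromosomes 5, 1 and 7) and the end with the lowest (chromosome 14). HindIII sites (AAGCTT, a palindrome that reads the same on both strands) are in capitals. HindIII is the enzyme that cut the chromatin before ligation, and 1 of the 18 ends whose first 80 bases were read held a site in them. Of the same 18 ends, 5 began with GAATTC and 10 with GATC.
chr5:3000001-3000080 (+): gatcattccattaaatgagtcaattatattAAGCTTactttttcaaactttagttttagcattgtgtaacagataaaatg
chr1:3000001-3000080 (+): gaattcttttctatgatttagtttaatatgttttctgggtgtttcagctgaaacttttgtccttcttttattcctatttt
chr7:3000001-3000080 (+): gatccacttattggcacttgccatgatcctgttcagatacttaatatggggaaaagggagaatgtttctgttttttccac
chr14:3000001-3000080 (+): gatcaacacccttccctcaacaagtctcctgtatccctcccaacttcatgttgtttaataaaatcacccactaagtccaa

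The next sequences are shown because they stand at strong contacts between ends. The bin that opens the chromosome 9 end, chr9:3000001-3040000, holds no HindIII site and repeats with a period of 234 bases, at which 69.4% of its bases equal the base 1 period on, as in major satellite. The matrix still gave this bin 8389 read pairs, 8021 of them trans; how reads came to be placed in a bin without a site was not tested. An identical run of 158 bases from this bin lies on the minus strand in chr12:3080001-3120000, a bin with 12 HindIII sites and no such period; the first 100 bases of the run are shown in capitals after 20 flanking bases. These bins formed the strongest bin pair between ends, with 1957 read pairs.
chr9:3000450-3000569 (+): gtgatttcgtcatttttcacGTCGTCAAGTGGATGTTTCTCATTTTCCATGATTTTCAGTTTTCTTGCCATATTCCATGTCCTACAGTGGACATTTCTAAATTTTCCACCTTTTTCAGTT
chr12:3109930-3110049 (-): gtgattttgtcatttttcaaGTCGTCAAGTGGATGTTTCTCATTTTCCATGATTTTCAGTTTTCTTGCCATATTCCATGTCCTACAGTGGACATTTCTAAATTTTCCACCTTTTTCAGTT
The bins chr4:3120001-3160000 and chr6:3120001-3160000 shared an identical run of 627 bases, of which the first 100 are shown in capitals after 20 flanking bases. They were joined by 23 read pairs, fewer than several other bin pairs between ends.
chr4:3150564-3150683 (+): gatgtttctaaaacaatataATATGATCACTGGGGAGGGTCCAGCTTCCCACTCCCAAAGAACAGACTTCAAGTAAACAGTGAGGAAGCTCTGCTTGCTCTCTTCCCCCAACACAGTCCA
chr6:3129541-3129660 (+): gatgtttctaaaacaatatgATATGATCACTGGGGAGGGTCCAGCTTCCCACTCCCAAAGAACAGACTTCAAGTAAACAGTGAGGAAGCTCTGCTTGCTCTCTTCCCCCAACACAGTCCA
The deposited matrix did not say how reads that match several places were treated, and it is not known which of these read pairs were placed at their true origin.

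The ends contacted each other more often than other autosomal bins did. The mean corrected signal was 4.24 per 1000 trans bin pairs between ends, 1.97 between an end and another bin, and 1.58 between other bins. The ratio of the first to the last was 2.69. Signal between ends and other bins was raised by a factor of 1.25. The deposited signal could be turned back into read pairs, since a factor solved for each bin made 100% of the trans values whole within 0.01. Trans read pairs made up 11.4% of all, and 2566790 of them joined autosomes. Of these, 11818 joined 2 ends, in 8146 of 2620296 possible bin pairs (0.311%). Between other bins, 0.138% of bin pairs had a contact, a ratio of 2.26. In read pairs the ratio was 3.04.

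The correction gave every bin about the same total signal whatever its depth, so bins with few read pairs carry large values per read pair, and a few bins, among them the satellite-like bin of chromosome 9, carry very many trans read pairs. Values are therefore also given for kept bins, with at least 100 read pairs and at most 5 times the median of 79 trans read pairs per bin, limits that were set after the data were seen. These limits removed 104 shallow bins and 8 bins rich in trans read pairs from the ends and left 2240. The ratio of end pairs to other pairs became 2.32 in corrected signal and 2.02 in read pairs, from 7197 read pairs between ends.

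Relative signal is used below for a pair of ends: its mean corrected signal per bin pair divided by that of the other bins of the same 2 chromosomes. Over the 171 pairs of ends it ran from 0.204 to 24.1, with a median of 1.97 and quartiles of 1.51 and 2.51. It was at or above 1.5 in 128 pairs (74.9%). Among all 109205 trans pairs of 5 Mb windows laid along the autosomes, 10.2% reached 1.5, and the median was 0.904. With kept bins, 130 pairs of ends reached 1.5, against 10.7% of all window pairs. In read pairs of kept bins, the exact 95% Poisson interval lay above 1 in 125 pairs, held 1 in 39 and lay below 1 in 7. Among all window pairs, 12.5% had an interval above 1; the chromosome 14 end had too few kept bins to be one of these windows. All 7 pairs of ends below 1 involved chromosome 14. The intervals cover counting error only. A pair of ends had between 1 and 124 such read pairs, with a median of 41.

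**Figure D1:**
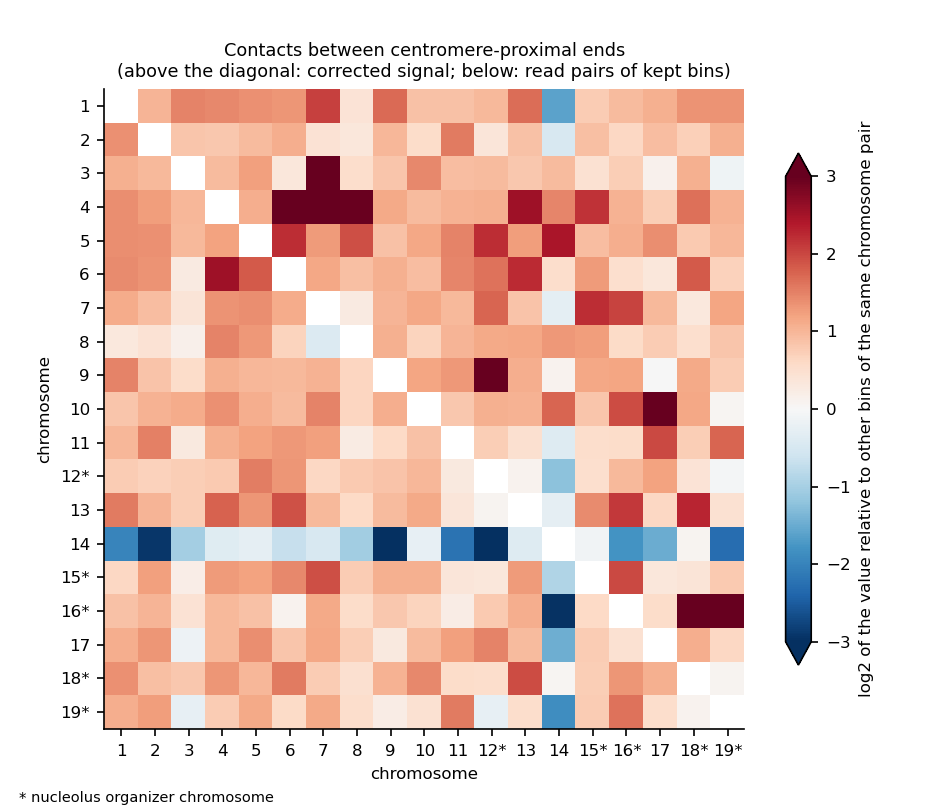
Heat map of the 171 pairs of centromere-proximal ends, with the chromosome on both axes and the colour giving the log2 value relative to the other bins of the same chromosome pair (red above, blue below; the colours end 3 units from 0). Corrected signal of all bins is above the diagonal and read pairs of kept bins below it; asterisks mark nucleolus organizer chromosomes. Most fields are red on both sides, the row of chromosome 14 is pale or blue below the diagonal, and the darkest fields above it include those that join chromosome 4 to 6, 7 and 8 and chromosome 16 to 18 and 19.

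The end of chromosome 5 had the highest median relative signal to the ends of its 18 partners, 2.37 (range 1.72 to 5.44), and it reached 1.5 with all 18. Chromosome 1 followed with 2.29 (0.327 to 4.16) and chromosome 7 with 2.25 (0.816 to 19.3). Next came chromosome 6 with 2.19, chromosome 4 with 2.16, chromosome 9 with 2.12, chromosome 13 with 2.10 and chromosome 10 with 2.07. The middle of the order held chromosome 16 with 2.00, chromosome 12 with 1.96, chromosome 11 with 1.93 and chromosome 18 with 1.91. Lower were chromosome 3 with 1.85, chromosome 15 with 1.83, chromosome 8 with 1.82, chromosome 2 with 1.81, chromosome 19 with 1.71 and chromosome 17 with 1.69. The chromosome 14 end was alone below 1, with a median of 0.881 (0.204 to 5.44). Limited to kept bins, its median was 1.12, still the lowest of the ends but above 1.

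Read pairs of kept bins gave a related order with counting intervals. The chromosome 4 end had 932 read pairs with the other ends, 2.49 times the number expected from other bins of the same chromosomes (95% interval 2.33 to 2.66). Chromosome 6, at 2.44 (2.291 to 2.601), and chromosome 5, at 2.38 (2.22 to 2.55), could not be told apart from it by counting error. At the lower end of the order, chromosome 3 had 1.49 (1.37 to 1.61) and chromosome 8 had 1.51 (1.396 to 1.632). The chromosome 14 end had 73 read pairs, 0.483 of the expected number (0.378 to 0.607). The expected number makes no allowance for the low depth of this end, described below. In corrected signal of kept bins its median relative signal was 1.12. All ends other than that of chromosome 14 had intervals above 1.

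**Figure D2:**
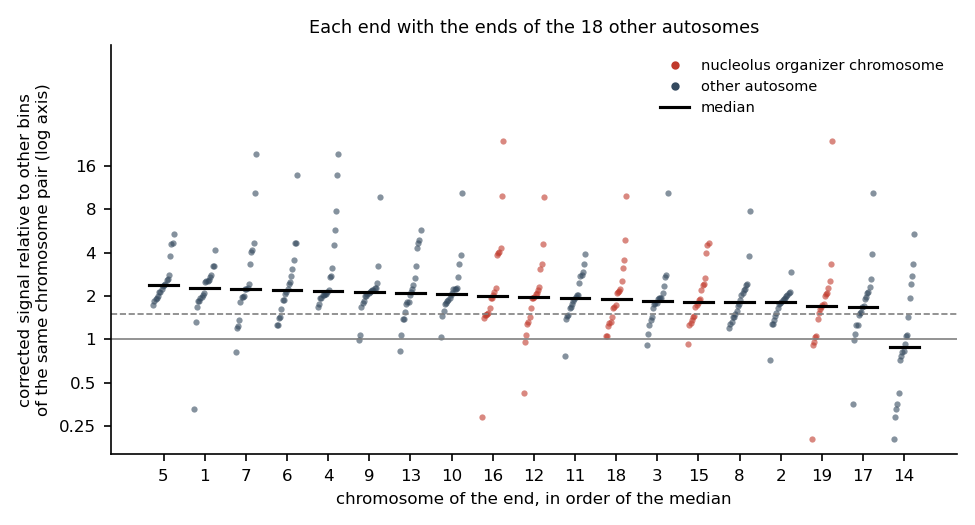
Relative corrected signal (log axis) of each centromere-proximal end with the ends of the 18 other autosomes, ordered by the median (black bar), with nucleolus organizer chromosomes in red. The grey line marks 1 and the dashed line 1.5. Medians fall slowly from 2.37 for chromosome 5 to 1.69 for chromosome 17, and chromosome 14 stands apart at 0.881.

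Chromosome 14 was also the end with the least usable data. Its bins had a median of 73 read pairs, against 546 in the rest of chromosome 14 and 343 to 1049 in the other ends, and 48 of its 125 bins met the limits for kept bins. It held 12 of the 23 end bins without any contact. Of those 23 bins, 5 had no sequenced base and 3 more had sequence but no HindIII site, so 15 had a site and still no contact. In the kept bins of this end, 1.00% of read pairs were trans, compared with 8.52% to 18.9% in the other ends. In corrected signal of all its bins the trans share was 22.3%, the highest of the ends. It was rich in annotated genes (33.1 per Mb), 154 of 158 of them numbered gene models, and 5 of them reached 1 CPM (counts scaled to a fixed library total) in MEFs. Of the 43 pairs of ends below 1.5, 13 involved chromosome 14, as did 10 of the 13 pairs below 1. Without it, 123 of 153 pairs were at or above 1.5.

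Outside the nucleolus organizer pairs, the 5 highest relative signals belonged to chromosomes 4 and 7 (19.3), 4 and 6 (13.8), 10 and 17 (10.4), 3 and 7 (10.3), and 9 and 12 (9.73). They rested on different kinds of data. Chromosomes 4 and 6 kept a high value when limited to kept bins, with 13.5 in corrected signal, and 124 read pairs gave a ratio of 5.85 (95% interval 4.87 to 6.98), the highest of all pairs. Chromosomes 4 and 7 fell to 4.92 and, with 37 read pairs, to 2.53 (1.78 to 3.49). The values for 10 and 17 and for 3 and 7 came down to 1.67 and 1.74 in the corrected signal of kept bins. In read pairs, 10 and 17 had 1.94 (1.41 to 2.601) from 44 read pairs, and 3 and 7 had 1.31 (0.809 to 1.997) from 21, an interval that holds 1. For 9 and 12, 1957 of 2004 read pairs came from the bin pair shown above, of which the chromosome 9 bin is satellite-like, and kept bins gave 1.81 (1.29 to 2.47) in read pairs. Apart from 10 and 17 and from 3 and 7, all of these chromosome pairs had their strongest bin pair within 1 Mb of the first sequenced base. The 3 lowest values were those of chromosome 14 with 19 (0.204), 16 (0.289) and 1 (0.327), which rest on 3, 2 and 2 read pairs.

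The strongest bin pairs lay close to the first sequenced base. Of the bin pairs between ends, 16 had at least 10 read pairs, and in all 16 both bins lay in the first 1 Mb. These 16 held 2524 read pairs, 21.4% of those between ends. In 2 of them both bins met the limits for kept bins. The bin chr4:3160001-3200000 took part in 7 of the 16, with partners on chromosomes 6, 8, 13 and 15, and 64.5% of its 31-mers (stretches of 31 bases, either strand) also occurred in the end of another autosome. The 3 bins at the start of chromosome 11 were joined to chr17:3040001-3080000 by 242, 57 and 23 read pairs. The first of them shared 3.09% of its 31-mers with that bin, including an identical run of 346 bases (chr11:3028523-3028868 and chr17:3079655-3080000, minus strand), and the second shared 0.0661%. Of the 31-mers of the first bin, 20.8% occurred in the end of another autosome, and of those of the chromosome 17 bin, 35.025%. The part of shared sequence in these contacts was not tested.

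Relative signal was highest next to the first sequenced base and fell within 1 Mb. Between stretches in the first 1 Mb, it was 15.8 in corrected signal, 11.1 for kept bins and 5.55 in the 777 read pairs of kept bins. Between stretches 1 to 2 Mb in, the same 3 values were 1.64, 1.80 and 1.89. In steps of 500 kb, the read pairs of kept bins gave 13.7 in the first step and 2.22 in the second. Beyond the first 1 Mb the values declined slowly and unevenly. The read pairs of kept bins gave 2.04 at 2 to 3 Mb, 1.88 at 3 to 4 Mb and 1.42 at 4 to 5 Mb. Across the limit of the ends there was no step down, with 1.78 at 5 to 6 Mb, just outside. Farther in, the value was 1.19 at 10 to 11 Mb, 1.48 at 11 to 12 Mb, 1.01 at 19 to 20 Mb and 1.65 at 29 to 30 Mb. The median over the 171 pairs fell from 3.65 in the first 1 Mb to 1.27 in the next, in corrected signal. At this depth 24 pairs had no contact at all between their first 1 Mb, and 38 had none between their second.

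The first 1 Mb was also raised against the remainder of the ends. In read pairs of kept bins, its relative value was 2.09 with stretches 1 to 2 Mb in and 1.75 to 1.97 with the later steps of the ends. It was as high with stretches just outside the ends. These values were 1.87 at 5 to 6 Mb from the first sequenced base, 1.97 at 6 to 7 Mb and 1.84 at 7 to 8 Mb. With the first 1 Mb left out of every end, the ratio of end pairs to other pairs was 1.92 in corrected signal and 1.80 in read pairs of kept bins.

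The telomere-proximal ends, the last 5 Mb of each autosome, also had raised contact with each other, of similar size in read pairs of kept bins. With bins of neither kind of end as the base, telomere-proximal ends with each other had a ratio of 1.97 in corrected signal, against 2.73 for centromere-proximal ends. In read pairs of kept bins the ratios were 2.07 (7958 read pairs) and 2.06 (7197 read pairs). Centromere-proximal with telomere-proximal ends of other chromosomes had 1.12 and 1.18. Of the 342 ordered pairs of this mixed kind, 15.5% were at or above 1.5 in corrected signal, compared with 76.0% of centromere-proximal and 71.9% of telomere-proximal pairs. Over the last 1 Mb of the autosomes, read pairs of kept bins gave 5.76, beside 5.55 for the first 1 Mb. In corrected signal the last 1 Mb was lower, with 6.62 against 15.8 in all bins and 6.52 against 11.1 in kept bins.

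**Figure D3:**
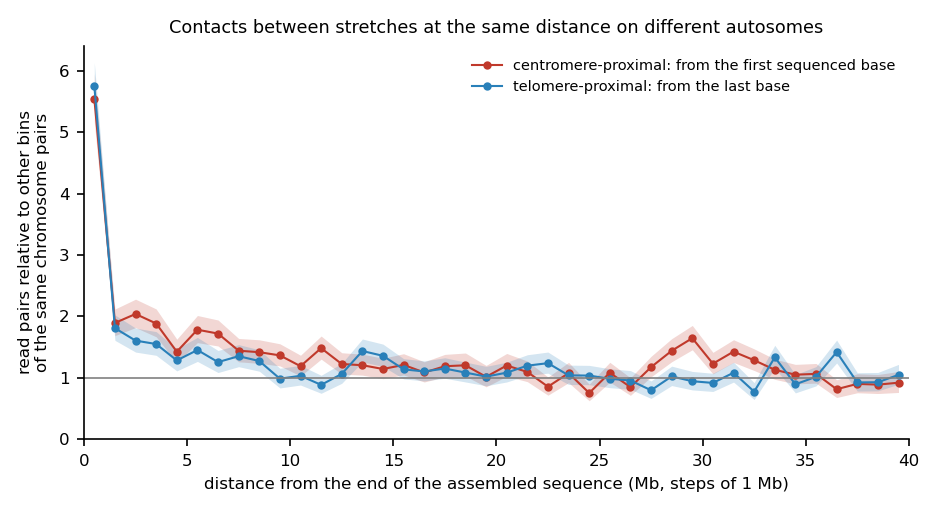
Read pairs of kept bins between stretches of 1 Mb at the same distance from the end of the assembled sequence on different autosomes, relative to other bins of the same chromosome pairs, against the distance in Mb; bands are exact 95% Poisson intervals. The centromere-proximal line (red) starts at 5.55 and the telomere-proximal line (blue) at 5.76, and both are below 2.1 from the second step on.

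For each end and each other autosome, the windows of that autosome were also ranked by their relative signal with the end. The other autosome's own centromere-proximal end was first in 113 of 342 cases and among the first 3 in 216, of 12 to 39 windows per autosome. For the last windows of the autosomes, the corresponding numbers were 117 and 202.

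Sequence shared between ends moved with the contacts in the first 1 Mb. The share of 31-mers of a bin that also occur in the end of another autosome had a median per end of 4.63% (chromosome 17) to 16.9% (chromosome 3). In the first 1 Mb, kept bins with more than 10% shared 31-mers had 10.9 times the read pairs per bin pair of other autosomal bins (95% interval 9.90 to 11.9; 463 read pairs). Where 1 of the bins was above 10%, the ratio was 3.70 (3.25 to 4.20), and where both were at most 10%, it was 2.86 (2.23 to 3.61; 70 read pairs). Beyond the first 1 Mb the same classes had 1.94 (1.82 to 2.06), 1.68 and 1.91 (1.81 to 2.03), so in read pairs the most and the least shared could not be told apart by counting error. In corrected signal of the same kept bins the most shared class was higher beyond the first 1 Mb, with 2.23 (2.10 to 2.37) against 1.67 (1.57 to 1.76) for the least shared. Its part in the contacts of the first 1 Mb was not tested.

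**Figure D4:**
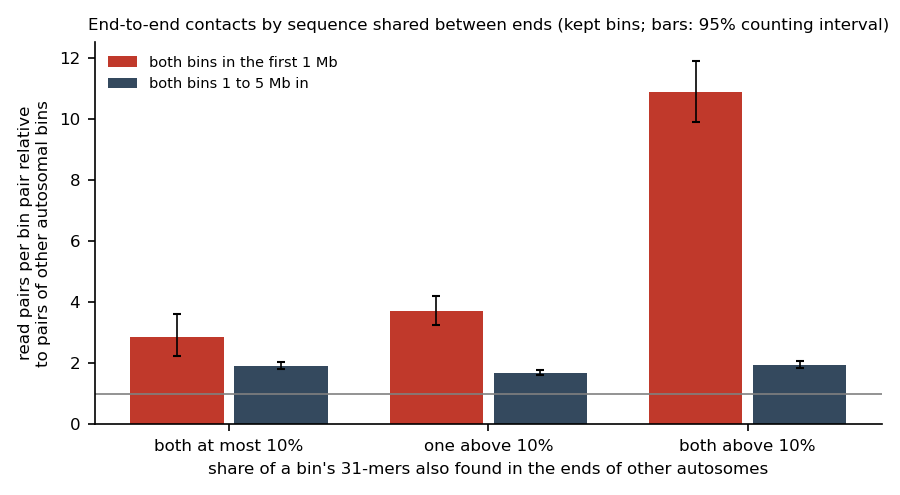
Read pairs per bin pair between centromere-proximal ends relative to pairs of other autosomal bins (kept bins), by the share of each bin's 31-mers found in the ends of other autosomes; error bars are exact 95% Poisson intervals. In the first 1 Mb (red) the ratio is 10.9 where both bins are above 10% and 2.86 where both are at most 10%, while from 1 to 5 Mb in (dark) it lies between 1.68 and 1.94.

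The 10 pairs of nucleolus organizer ends were not higher, by their median, than the other pairs. Their median relative signal was 1.58 (range 0.965 to 24.1), compared with 1.95 for the 70 pairs of an organizer end with another end (0.204 to 9.73) and 2.02 for the 91 pairs of other ends (0.327 to 19.3). The ranges overlap. In this measure 2 organizer pairs, 16 with 18 and 16 with 19, lay above all mixed pairs, but in read pairs of kept bins both lay below the mixed pairs 13 with 18 (3.87) and 7 with 15 (3.81). Of the organizer pairs, 5 of 10 were at or above 1.5, against 51 of 70 and 72 of 91 in the other classes. In read pairs of kept bins the medians were 1.60, 1.74 and 1.97. Summed over a class, the read pairs of kept bins were 1.63 times the expected number for organizer pairs (95% interval 1.49 to 1.79; 492 read pairs), 1.89 for mixed pairs (1.82 to 1.96) and 2.01 for other pairs (1.95 to 2.08). The other bins of these chromosomes differed in the opposite order, with a median of 1.80 per 1000 bin pairs among organizer chromosomes, 1.64 in mixed pairs and 1.52 among other chromosomes, so the base against which organizer ends were set was higher. With 1 base for all chromosome pairs, the medians of the classes were 1.80, 1.96 and 1.95.

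Within the organizer pairs, chromosome 16 with 19 and with 18 stood apart. Chromosomes 16 and 19 had the highest relative signal of all 171 pairs in all bins, 24.1. The same pair had 9.49 in kept bins and 3.08 (2.44 to 3.83) in 80 read pairs of kept bins. On these 2 scales chromosomes 4 and 6 were higher, with 13.5 and 5.85. Chromosomes 16 and 18 had 9.86, 4.20 and 2.50 (1.91 to 3.21) on the same scales. Chromosomes 15 and 16 had 3.97 in all bins but 1.43 in kept bins and 1.52 (1.12 to 2.02) in their read pairs, and 12 and 16 had 1.96, 1.76 and 1.74 (1.23 to 2.37). For comparison, 15 and 19 had 1.80 in kept bins and 1.69 (1.29 to 2.16) in their read pairs. The 6 pairs without chromosome 16 lay between 0.965 and 1.73, in the order 15 and 19 (1.73), 12 and 15 (1.42), 12 and 18 (1.32), 15 and 18 (1.31), 18 and 19 (1.05) and 12 and 19 (0.965). Their 265 read pairs of kept bins were 1.34 times the expected number (1.19 to 1.52). In corrected signal of all bins the comparison of the classes turned on few chromosomes: without chromosome 12 the median of the remaining organizer pairs was 2.85, above the 2.02 of the other pairs, and the pooled mean in place of the median gave 4.67 for organizer pairs and 2.75 for other pairs. In kept bins, the organizer pairs without chromosome 12 had a median of 1.61, and 1.68 in read pairs, below the 2.10 and 1.97 of the other pairs.

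**Figure D5:**
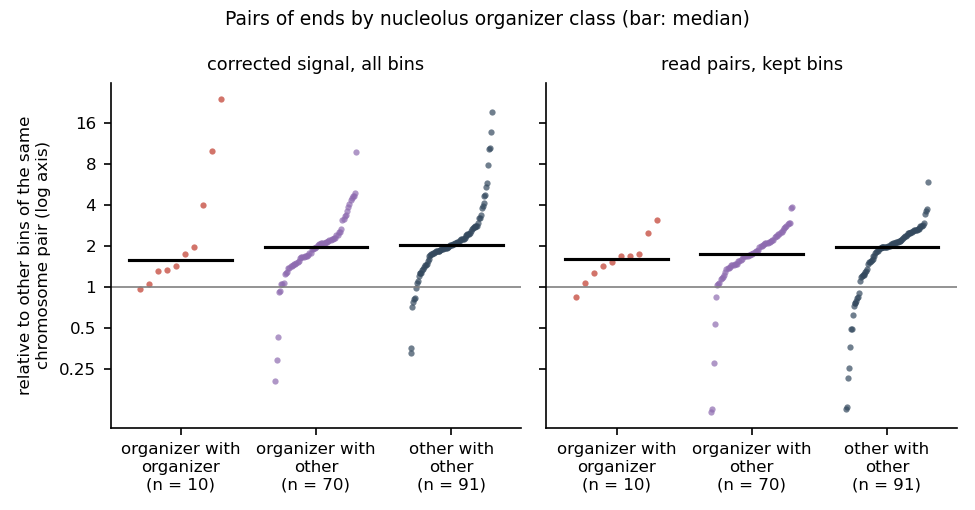
Values of the 171 pairs of ends relative to other bins of the same chromosome pair (log axis) in 3 classes by nucleolus organizer chromosome, in corrected signal of all bins (left) and read pairs of kept bins (right); the bar is the median. The classes overlap, with medians of 1.58, 1.95 and 2.02 on the left, and the organizer pair at 24.1 joins chromosomes 16 and 19.

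Raised contact was present within each class of compartment. Compartments A and B, the more and the less active part of the genome in Hi-C maps, were assigned per 200 kb from the first eigenvector of each chromosome. A was the side with more genes. The correlation of the eigenvector with gene number ran from 0.185 (chromosome 13) to 0.533 (chromosome 5), so the assignment is weak on some chromosomes. Of the end bins, 38.8% were in A, compared with 37.6% of other bins. Pairs of A bins had 1.78 times the corrected signal of A pairs elsewhere, pairs of A with B had 2.33 times, and pairs of B bins had 3.12 times. In read pairs of kept bins the 3 ratios were 1.65, 2.02 and 2.27.

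The ends held a larger share of trans signal than the remainder of their own chromosomes on all 19 autosomes, with 14.6% to 22.3% against 12.3% to 15.8%. The highest shares were those of chromosomes 14 (22.3%) and 7 (22.2%). In read pairs of kept bins the ends of chromosomes 7 (10.8%), 11 (8.52%) and 14 (1.00%) were lower. The ends still held the larger share on 16 of 19 autosomes. When the expected signal of a bin pair was set from the trans totals of both bins, which takes this into account, the ratio of end pairs to other pairs was 1.60 and 48 of 171 pairs reached 1.5, against 8.62% of all window pairs on the same scale. The ends were not alike in sequence or genes. GC content ran from 38.1% (chromosome 3) to 47.8% (chromosome 19), against 40.5% to 43.7% in the rest of the autosomes. HindIII sites were denser in 15 of 19 ends than in the remainder of the chromosome. Across the 19 ends, Spearman's rho of the median relative signal was 0.54 with the median share of 31-mers found in other ends, 0.44 with chromosome length, -0.44 with GC content, -0.36 with genes per Mb, -0.18 with the share of bins in A and -0.13 with the median read pairs per bin. With the ratio in read pairs of kept bins, rho was 0.27, 0.33, -0.19, -0.34, 0.21 and 0.44, so on that scale it was highest with read pairs per bin (0.34 without chromosome 14, when HindIII sites per Mb had 0.52). These values describe 19 ends of 1 pooled map, whose pairs share ends and depth.

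The ends held 1452 annotated genes whose start lies in them, 15.4 per Mb of sequence, compared with 14.4 per Mb elsewhere on the autosomes. In wild-type MEFs, 539 of them (37.1%) had a mean of at least 1 CPM, beside 34.5% of the other autosomal genes. In the 3 ends with the highest median relative signal, the most abundant genes were *Gatad1* on chromosome 5 (chr5:3632932-3647934, minus strand), a GATA zinc finger protein, with a mean of 100.2 CPM (range 94.95 to 106.3 in 6 libraries), *Rb1cc1* on chromosome 1 (chr1:6196278-6266729, plus strand), a subunit of the complex that starts autophagy, with 222 CPM (180.0 to 268), and *Rps9* on chromosome 7 (chr7:3655595-3658503, plus strand), a protein of the small ribosomal subunit, with 748 CPM (717 to 774). In the 3 ends with the lowest median they were *Cfl1* on chromosome 19 (chr19:5490485-5494029, plus strand), which severs actin filaments, with 1293 CPM (1117 to 1383), *Tulp4* on chromosome 17 (chr17:6106437-6251128, plus strand) with 368 CPM (327 to 419), and the gene model *Gm3636* on chromosome 14 (chr14:7568199-7707669, minus strand) with 6.83 CPM (6.01 to 8.0003). The chromosome 19 end had 45.8 genes per Mb and 87.6% of its bins in compartment A, and the chromosome 1 end had a low gene density and 16% of its bins in A. Their medians of relative signal were 1.71 and 2.29. The order did not follow gene density throughout: chromosome 7, with 37.8 genes per Mb, had 2.25, and chromosome 3, with 4.201 genes per Mb and 8% of its bins in A, had 1.85. Fibroblast expression is given as background to the ends and says nothing of their activity in C2C12 cells.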

How the data were processed

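HiC-Pro 2.7.8 was run by the authors on both C2C12 Hi-C replicates together, with mm9 as the genome. The deposited matrix holds an iteratively corrected contact signal per pair of 40 kb bins. The treatment of reads with several matches and of duplicates is not given in the sources used here. Absent bin pairs were counted as 0. Read pairs were recovered by solving for 1 factor per bin. Depth was 22152589 cis and 2852195 trans read pairs, so 89.8% of end-to-end bin pairs with a contact rest on 1 read pair, and exact 95% Poisson intervals cover counting error only.

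For MEFs, the authors deposited expected counts per gene (RSEM 1.2.29), which were scaled here to CPM of the library total (42986516 to 62283507). Sequence, HindIII sites and genes came from NCBIM37, whose chromosome lengths equal those of the bin list. Python 3.11.15, NumPy, pandas, SciPy and matplotlib were used. The recovery of read pairs and their ratios were tested on simulated contacts with no differences in depth between bins. Ratios of corrected signal and the effect of shared sequence were not part of that test.

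The ends, lists and comparisons were chosen with earlier results of these data known. All ends were described, with the 10 organizer pairs, the 5 highest and 3 lowest other pairs, and the most abundant MEF gene of the 3 highest and 3 lowest ends. Alternatives changed the end length, first 1 Mb, absent pairs, scale, extreme bin pairs, expected signal and chromosomes. The limits for kept bins and the limit of 10% shared 31-mers were set after seeing the data. Knockout MEF and ChIP-seq libraries were not used here.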

Additional observations from a re-analysis of the deposited data

How the results depend on the processing

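No paired analysis was possible because the 2 replicates were pooled in 1 matrix and no result comes from a test. A ratio counted as moved when it left the main value's counting interval, and a count when it changed by more than 1.5 times. Of the ratios most moved. Of the counts, 4 of 17 settings moved the number of pairs and none of 2 the number of genes. The ratio of end pairs to other pairs stayed above 1 under all 16 settings other than leaving out a chromosome and was 2.69 in the main one. It was 3.602 with ends of 3 Mb, 1.98 with ends of 10 Mb, 1.92 without the first 1 Mb, 2.26 as a share of bin pairs with contact, 3.04 in read pairs, 2.38 with the top 0.1% set to the lowest of them, 1.60 with trans totals as the base and 1.97 as a median over pairs. With kept bins it was 2.32, 2.02 in read pairs, 1.53 with trans totals as the base, 1.795 without the first 1 Mb (1.80 in read pairs), and 1.93 in read pairs with the shared end bins left out. With absent bin pairs left out it was 1.19, a setting that takes out how often bin pairs had a contact. Most bin pairs with a contact hold 1 read pair whatever their class. Without each chromosome in turn it ran from 2.48 to 2.83.

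The number of pairs at or above 1.5 was 128 in the main setting, 36 with absent bin pairs left out, 48 with trans totals as the base (65 in kept bins) and 84 at 2-fold. It stayed within 1.5 times the main count under the other 13 settings, and without each chromosome it ran from 110 to 123. The organizer median divided by the other median was 0.780. It was 0.898 with ends of 10 Mb, 0.988 with absent bin pairs left out, 0.938 with trans totals as the base (0.848 in kept bins), 0.923 with 1 mean for all chromosome pairs, 0.687 in kept bins (0.689 without the first 1 Mb), 0.987 in read pairs of kept bins with the shared end bins left out (0.812 in read pairs of kept bins with them) and 0.957 on chromosomes 10 to 19 alone. It reversed to 1.70 with the pooled mean, where the cause was not tested. Without each chromosome it ran from 0.651 (without chromosome 16) to 1.41 (without chromosome 12, which also reversed it).

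Relative signal in the first step of the profile was 15.8, and it was 45.9 in steps of 500 kb, 5.66 in steps of 2 Mb, 11.1 in kept bins and 5.55 in their read pairs. Telomere-proximal pairs had 1.97, with 2.066 and 2.07 in kept bins and 0.968 with absent bin pairs left out. Mixed pairs of ends had 1.12, with 1.17 and 1.18 in kept bins and 0.961 with absent bin pairs left out. Why these 2 values with absent bin pairs left out fell below 1 was not tested. Compartment ratios moved to 2.08 at 400 kb for A pairs and 1.65 in read pairs of kept bins, to 2.08, 2.24 and 2.02 for A with B, and to 2.74 and 2.27 for B pairs. The count of 539 genes was 682 at 0.1 CPM, 366 at 10 CPM and 532 to 539 without each MEF library.

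Depth limits single pairs of ends, which rest on a median of 41 read pairs in kept bins. The map has no replicate error, and sequence that recurs between ends can place reads at a wrong end. C2C12 cells are a cultured line whose chromosome numbers were not examined here.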
